A study of Homo sapiens with 9 samples.

Results

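The aldo-keto reductases described here were 8 genes chosen by symbol, AKR1C1, AKR1C2, AKR1C3, AKR1B10, AKR1B1, AKR1A1, AKR7A2 and AKR7A3, out of 11664 gene names listed in the deposited tables. RNA was measured in HT29, a human colorectal adenocarcinoma cell line, in 9 libraries. In 3 libraries, named CRC-MPS CM, the cells had received for 24 h conditioned medium (CM) of the colorectal cancer microphysiological system, which by the study's methods holds epiploic adipose tissue (EPAT, the fat outpouchings of the colon) and HT29-GFP cells between sheets of EPAT-derived stromal cells (ESC). By the labels alone, this group received CM from adipose tissue. The obese state of the donors is stated in the paper and not in the labels. In 3 libraries, named ESC CM, they had received for 24 h CM of the stromal cells alone, and in 3 libraries, named Con, they had been kept without serum for 24 h.

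By the study's methods both CM came from cultures grown with fetal bovine serum and were diluted in serum-free medium, so an effect of serum or its residue and an effect of the cultures cannot be told apart in either comparison with Con. HT29 is a single cell line, and nothing states that the 3 numbered biological replicates of a group received CM of different donors, so standard errors cover the spread between these libraries, which may be technical. In bulk RNA, fewer cells that express a gene and less of its RNA per cell cannot be told apart.

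Aldo-keto reductases are enzymes of the cytosol that use NADPH to reduce aldehydes and ketones to alcohols. Their substrates include steroids, prostaglandins, retinal, sugars and the reactive aldehydes left by lipid peroxidation. Several human members, among them the AKR1C genes and AKR1B10, are known targets of NRF2, the transcription factor of the antioxidant response, and AKR1B10 is known as an enzyme of intestinal epithelium. This is background and no result of these libraries.

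The 3 AKR1C genes are neighbours on chromosome 10 (hg38, GENCODE release 29). AKR1C1 lies at chr10:4963253-4983283 on the plus strand, AKR1C2 at chr10:4987400-5018031 on the minus strand, 4116 bp away, and AKR1C3 at chr10:5035354-5107686 on the plus strand, a further 17322 bp away. The windows of 300 bases around their annotated starts (250 bases before and 50 after, RefSeq, GRCh38.p14) are shown because the 3 genes moved together and because the first pair is nearly the same sequence. Capitals mark the CCAAT box, which reads ATTGG on the strand of the gene. AKR1C1 is at chr10:4963165-4963464 on the plus strand and AKR1C2 at chr10:5003808-5004107 on the minus strand. The 2 RefSeq starts of AKR1C3 are at chr10:5048531-5048830 and chr10:5094164-5094463 on the plus strand. The GENCODE extents of AKR1C2 and AKR1C3 given above begin farther upstream than these windows. Which start HT29 uses is unknown.
AKR1C1: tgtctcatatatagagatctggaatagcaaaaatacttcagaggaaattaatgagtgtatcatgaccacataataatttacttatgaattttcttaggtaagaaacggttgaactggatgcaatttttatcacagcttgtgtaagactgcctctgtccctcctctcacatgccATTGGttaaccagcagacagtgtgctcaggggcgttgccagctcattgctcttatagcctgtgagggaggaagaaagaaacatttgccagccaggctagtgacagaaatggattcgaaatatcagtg
AKR1C2: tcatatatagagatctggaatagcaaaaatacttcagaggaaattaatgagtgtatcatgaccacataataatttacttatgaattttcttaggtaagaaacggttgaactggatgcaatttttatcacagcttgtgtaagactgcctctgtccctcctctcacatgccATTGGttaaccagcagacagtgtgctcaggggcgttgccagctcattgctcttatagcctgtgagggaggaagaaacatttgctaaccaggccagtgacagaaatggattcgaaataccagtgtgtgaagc
AKR1C3 upstream start: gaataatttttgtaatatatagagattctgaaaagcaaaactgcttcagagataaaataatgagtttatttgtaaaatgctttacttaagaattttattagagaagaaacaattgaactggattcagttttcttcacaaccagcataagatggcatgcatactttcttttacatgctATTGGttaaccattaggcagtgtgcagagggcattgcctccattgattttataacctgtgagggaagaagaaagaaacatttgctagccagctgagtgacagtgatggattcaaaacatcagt
AKR1C3 downstream start: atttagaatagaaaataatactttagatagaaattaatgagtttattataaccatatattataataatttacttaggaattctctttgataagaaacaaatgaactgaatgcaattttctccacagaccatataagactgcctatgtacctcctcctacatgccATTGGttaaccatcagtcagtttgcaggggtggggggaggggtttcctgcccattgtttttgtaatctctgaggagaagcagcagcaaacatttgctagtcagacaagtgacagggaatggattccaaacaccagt

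The windows of AKR1C1 and AKR1C2 were identical at 288 of 292 aligned bases (98.6%) and shared an unbroken run of 245 bases. Each of them matched the windows of AKR1C3 at 79.9% to 81.6% of aligned bases, with no shared run over 19 bases. All 4 windows held a single CCAAT box, which began 77 bases before the start in AKR1C1, 81 in AKR1C2, and 73 and 86 in AKR1C3. A CCAAT match on either strand was present in 34.6% of 35097 promoter windows of that length. The core of the antioxidant response element, searched as TGACNNNGC on both strands, was found in 13.3% of them. None of the AKR1C windows held that core, nor did those of AKR1A1, AKR1B1 and AKR7A3. Both windows of AKR7A2, which overlap almost fully, held the same 3 matches. Sequence outside these windows was not searched, so a window without the core does not show that a gene lacks the element. Control of the members by NRF2 was not tested. Promoter windows were found for 7 of the 8 members, 10 windows in all, and AKR1B10 had none.

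The likeness extends into the transcripts and bears on how far a read can be assigned to a gene. The coding sequences of AKR1C1 and AKR1C2 differed at 19 of 969 bases (98.0% identical), shared an unbroken run of 186 bases, and had 66.8% of their 31-base words in common. AKR1C3 was 91.4% identical to AKR1C1 and 91.0% to AKR1C2. It had 22.6% and 23.2% of its coding words in common with them, with unbroken runs of 112 and 171 bases. Over all annotated transcripts, 47.9% of the 31-base words of AKR1C2 and 35.5% of those of AKR1C1 also occurred in another gene of the superfamily, against 7.06% for AKR1C3 and 0.270% for AKR1A1. The split of reads between AKR1C1 and AKR1C2 is therefore uncertain, and in part also that with AKR1C3. AKR1B10 shared 18.8% of its words with AKR1B15, and AKR7A3 shared 31.7% with AKR7L, so their values carry a like uncertainty. AKR1B1 (chr7:134442350-134459284, minus strand) and AKR1B10 (chr7:134527592-134541408, plus strand), 68307 bp apart, were 77.1% identical in coding sequence. AKR7A3 (chr1:19282558-19289250) and AKR7A2 (chr1:19303965-19312146), both on the minus strand and 14714 bp apart, were 92.1% identical. AKR1A1 stands alone at chr1:45550543-45570049 on the plus strand.

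**Figure D1:**
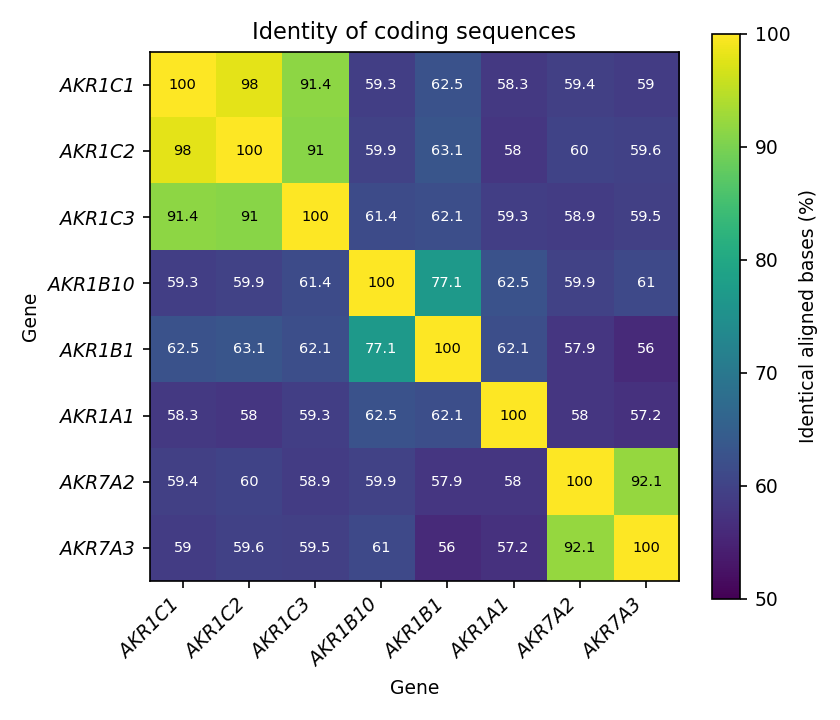
Share of identical bases (%) in pairwise global alignments of the coding sequences of the 8 members, 1 transcript a gene, with gapped positions left out. AKR1C1 and AKR1C2 stand at 98.0%, the other AKR1C pairs at 91.0% and 91.4%, the AKR7A pair at 92.1% and the AKR1B pair at 77.1%.

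The values per library were read as TPM, transcript abundances scaled to a fixed total per library, which are scaled by transcript length and so allow members to be set beside each other. Each deposited table sets 1 pair of groups against each other and lists only genes with a p under 0.05 in the authors' test. Of the 8 members, 6 were listed between the CM, where AKR1A1 and AKR7A3 were not listed, and 7 in each comparison with Con, where AKR7A2 was not listed. The table that sets CRC-MPS CM beside ESC CM holds 2835 genes, that of CRC-MPS CM and Con 10019, and that of ESC CM and Con 10007. The sum of TPM over listed genes was 277724 to 285920 in the libraries of the first table and 746530 to 752614 in those of the other 2. The depth of each library is unknown, because no read totals come with the tables. Of 12 markers of colon epithelium, 6 were listed between the CM, 11 in the comparison of CRC-MPS CM with Con and 10 in that of ESC CM with Con. The summed TPM of those listed was 9255 to 10810 in CRC-MPS CM libraries against 12379 to 13636 in Con, and 6928 to 7290 in ESC CM libraries against 8918 to 9753 in Con. In each comparison with Con, 4 were called lower (CDX2, KRT20, KRT19 and CDH1) and 1 higher, CEACAM5 with CRC-MPS CM and CDX1 with ESC CM. Of all listed genes, 20.3% were called lower and 20.5% higher with CRC-MPS CM, and 20.2% and 17.6% with ESC CM. Of 20 markers of adipocytes, stroma, leukocytes and endothelium, 0, 3 and 3 were listed in those tables, with summed levels of 12.1 to 14.0 TPM in CRC-MPS CM against 27.8 to 30.2 TPM in Con and 9.05 to 12.7 TPM in ESC CM against 25.4 to 29.3 TPM in Con, and the adipocyte genes ADIPOQ, LEP and PLIN1 were not listed. Another adipocyte gene, CIDEC, named after its values were seen, was listed and called lower, at 1.16 ± 0.211 TPM in CRC-MPS CM against 3.48 ± 0.756 TPM in Con and at 1.42 ± 0.667 TPM in ESC CM against 3.47 ± 0.759 TPM in Con (SD, n = 3 each). The leukocyte marker CD68 made up most of the summed levels and was also called lower. It averaged 10.9 TPM in CRC-MPS CM against 23.9 TPM in Con, and 9.09 TPM in ESC CM against 24.0 TPM in Con. The part of these marker differences in the values of the family was not tested.

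The members were chosen with these values known, so their levels and differences are a description and no p is given for them. Levels of CRC-MPS CM and Con were read from the table that holds both, and those of ESC CM from its table with Con, so orders across the 3 groups are set across tables. The 51 values of the same member and library in different tables differed by a median of 0.116% and at most 0.738%. A difference below is the difference of mean log2(TPM + 1), with the standard error (SE) of the limma fit over the listed genes, and it understates the change of a gene near or under 1 TPM. A gene was called when its Benjamini-Hochberg adjusted p in limma was under 0.05 and its fold over 1.5.

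The AKR1C genes, which encode reductases of steroids and prostaglandins, and AKR1B10 were many times higher with either CM than in Con, and their levels with CRC-MPS CM exceeded those with ESC CM. AKR1B1 was low everywhere and was highest with CRC-MPS CM. AKR1A1, AKR7A2 and AKR7A3 stayed within a 1.5-fold difference in every comparison that listed them. Together, the 7 members with values in all 9 libraries summed to 1005 ± 81.3 TPM in CRC-MPS CM, 815 ± 16.5 TPM in ESC CM and 356 ± 43.3 TPM in Con (SD, n = 3 each).

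**Figure D2:**
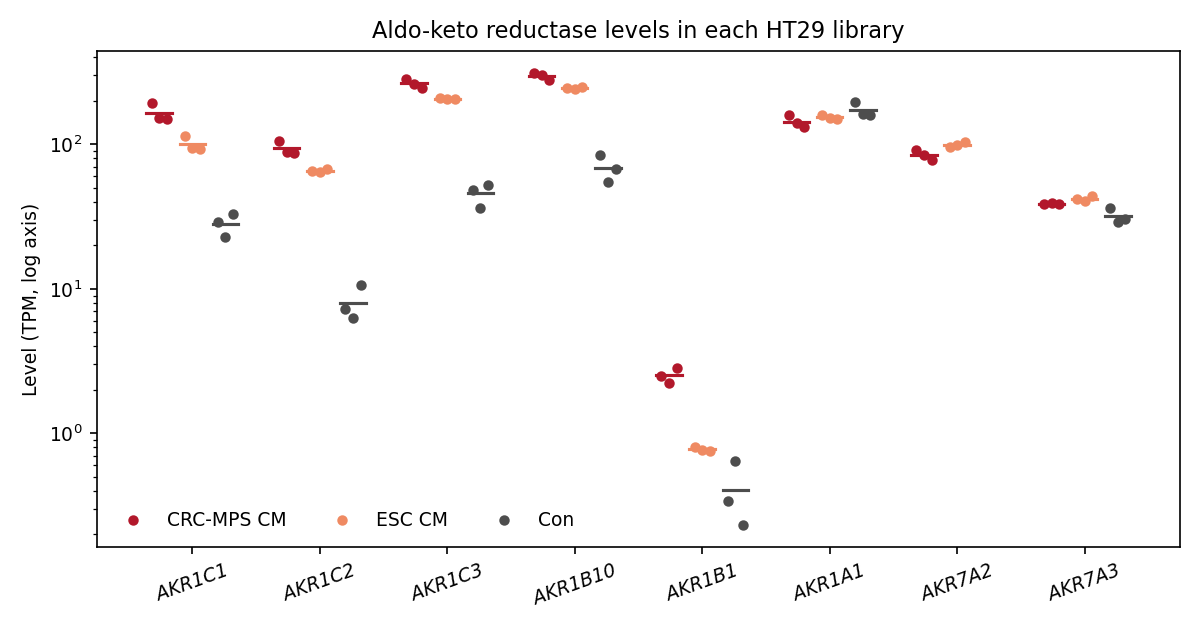
TPM (log axis) of the 8 members in each library, with CRC-MPS CM, ESC CM and Con from left to right for each gene, a point per library (replicates 1 to 3 from left to right) and a bar at the mean of 3. The AKR1C genes and AKR1B10 have no overlap between any of the groups, AKR1B1 reaches at most 2.86 TPM, and AKR7A2 has no Con value because it was not listed there.

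AKR1C2, which reduces dihydrotestosterone to a weak androgen, had 105, 89.0 and 86.6 TPM in the CRC-MPS CM libraries, 65.3, 64.1 and 67.7 TPM in the ESC CM libraries and 7.23, 6.32 and 10.6 TPM in the Con libraries. The groups did not overlap, and Con was far below both CM. The mean was 11.6-fold higher in CRC-MPS CM than in Con, a log2 difference of 3.41 ± 0.168 (SE). It was 8.18-fold higher in ESC CM than in Con, a log2 difference of 2.91 ± 0.159 (SE). By this difference AKR1C2 ranked 4th of 10019 listed genes for CRC-MPS CM against Con and 1st of 10007 for ESC CM against Con. Between the CM it was 1.43-fold higher with CRC-MPS CM (log2 difference 0.50 ± 0.0880, SE), under the 1.5-fold threshold.

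AKR1C3, which makes testosterone from androstenedione and prostaglandin F from prostaglandins D and H, had 283, 264 and 245 TPM in CRC-MPS CM, 209, 206 and 206 TPM in ESC CM and 48.4, 36.4 and 52.7 TPM in Con. Its ESC CM libraries were nearly equal, and no group overlapped another. The log2 difference was 2.51 ± 0.137 (SE) for CRC-MPS CM against Con, a 5.76-fold ratio of means, and 2.17 ± 0.129 (SE) for ESC CM against Con, a 4.53-fold ratio. It ranked 9th in both comparisons with Con. Between the CM the difference was 0.35 ± 0.0731 (SE), or 1.28-fold.

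AKR1C1, which inactivates progesterone, had 194, 152 and 149 TPM in CRC-MPS CM, 114, 94.3 and 93.3 TPM in ESC CM and 28.8, 22.9 and 33.0 TPM in Con. In both CM groups replicate 1 stood above the other libraries, and the groups did not overlap. Against Con, the log2 difference was 2.51 ± 0.151 (SE) with CRC-MPS CM (5.84-fold, rank 10 of 10019) and 1.81 ± 0.141 (SE) with ESC CM (3.57-fold, rank 35 of 10007). Between the CM, AKR1C1 was 1.64-fold higher with CRC-MPS CM (0.71 ± 0.124, SE), the largest difference of the 3 AKR1C genes. Without CRC-MPS CM replicate 1 that difference was 0.58, just under the 1.5-fold threshold, and the gene was not called.

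AKR1B10, which reduces retinal and aliphatic aldehydes, had 310, 304 and 278 TPM in CRC-MPS CM, 244, 243 and 248 TPM in ESC CM and 84.0, 55.1 and 68.0 TPM in Con. It had the highest mean of the members with either CM, although its CRC-MPS CM libraries overlapped those of AKR1C3. The log2 difference against Con was 2.11 ± 0.144 (SE) with CRC-MPS CM (4.31-fold, rank 26) and 1.84 ± 0.139 (SE) with ESC CM (3.57-fold, rank 31). Between the CM it was 0.28 ± 0.0690 (SE), or 1.21-fold.

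AKR1B1, aldose reductase, which turns glucose into sorbitol, had 2.49, 2.23 and 2.86 TPM in CRC-MPS CM, 0.805, 0.767 and 0.758 TPM in ESC CM and 0.338, 0.643 and 0.234 TPM in Con. The 3 groups did not overlap. The means gave a ratio of 6.23 for CRC-MPS CM against Con, 1.92 for ESC CM against Con and 3.26 for CRC-MPS CM against ESC CM. On the log2(TPM + 1) scale these were differences of 1.33 ± 0.121, 0.35 ± 0.106 and 0.99 ± 0.0806 (SE). The authors' mean normalized count of AKR1B1 was 13.9 to 34.9 in the 3 tables, against 3972 to 7245 for AKR1B10, so counting error weighs far more on AKR1B1.

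AKR1A1, an aldehyde reductase of many tissues, had 159, 140 and 131 TPM in CRC-MPS CM, 158, 152 and 150 TPM in ESC CM and 195, 162 and 159 TPM in Con. All CM libraries lay below the lowest Con library, although CRC-MPS CM replicate 1, at 159.2 TPM, nearly reached it, at 159.4 TPM. The log2 difference was -0.26 ± 0.108 (SE) for CRC-MPS CM and -0.16 ± 0.0877 (SE) for ESC CM against Con, and neither was called. Without Con replicate 1, the highest library, they were -0.17 and -0.07. AKR7A3, which reduces the dialdehyde of aflatoxin, had 39.0, 39.3 and 38.6 TPM in CRC-MPS CM, 41.9, 40.5 and 43.7 TPM in ESC CM and 36.0, 29.2 and 30.3 TPM in Con. Its differences against Con were 0.29 ± 0.0910 (SE) with CRC-MPS CM and 0.40 ± 0.0875 (SE) with ESC CM, also not called. AKR7A2, which reduces succinic semialdehyde, was listed between the CM, with 90.9, 84.2 and 78.2 TPM in CRC-MPS CM and 96.1, 98.2 and 103 TPM in ESC CM. It was the listed member that was lower with CRC-MPS CM (-0.23 ± 0.0775, SE).

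**Figure D3:**
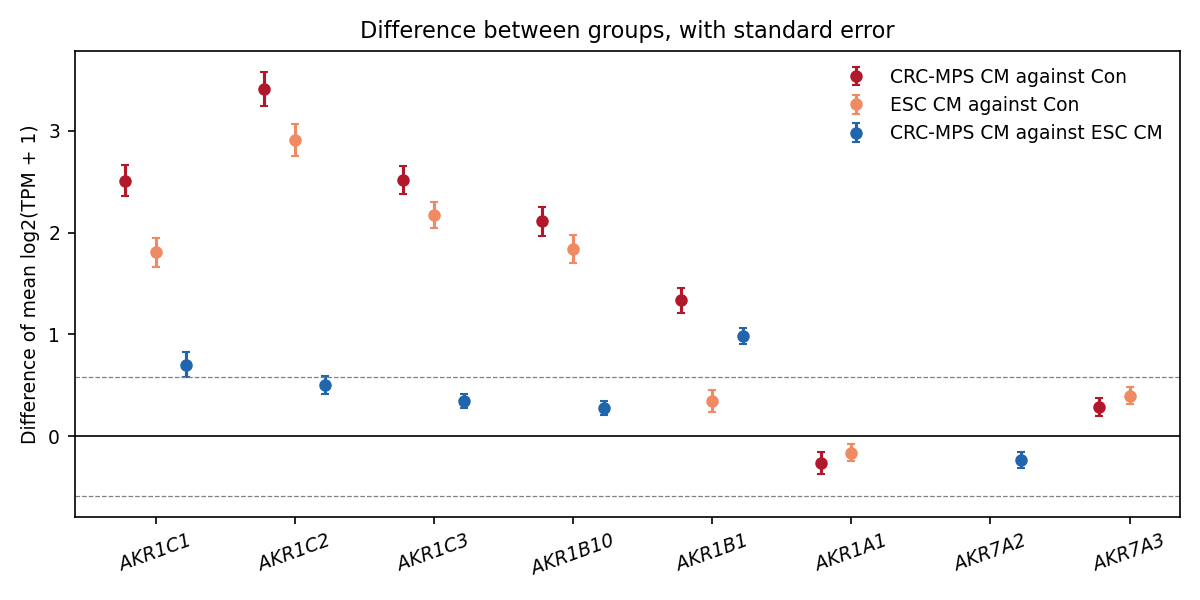
Difference of mean log2(TPM + 1) between groups for each member, with the standard error of the limma fit as bars (3 libraries a group) and dashed lines at a fold of 1.5. AKR1C2 has the highest points of both comparisons with Con, at 3.41 and 2.91, while AKR1B1 has the highest point between the CM, at 0.99.

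Counted over the family, 5 of the 7 listed members were called higher for CRC-MPS CM against Con (AKR1B1, AKR1B10 and the 3 AKR1C genes) and 0 lower, where 20.5% of all listed genes were called higher and 20.3% lower. The groups did not overlap in 6 members that were higher and 1 that was lower (45.3% and 44.1% of all listed genes). For ESC CM against Con, 4 of 7 were called higher (AKR1B10 and the AKR1C genes) and 0 lower, beside 17.6% and 20.2% of all listed genes, and again 6 higher and 1 lower did not overlap (45.7% and 45% of all). Between the CM, 2 of 6 were called higher (AKR1B1 and AKR1C1) and 0 lower, beside 3.92% and 1.06% of all listed genes, and 5 higher and 1 lower did not overlap (36.8% and 26.8% of all). At an unadjusted p under 0.05 in limma, 6 members were higher and 1 lower for CRC-MPS CM against Con. The counts were 6 and 0 for ESC CM against Con, and 5 and 1 between the CM. The share of all listed genes at an unadjusted p was not computed, neither here nor for the lists below. By the adjusted p without a minimum fold, 8886 of 10019, 8952 of 10007 and 791 of 2835 listed genes passed, in the same order. The median difference over listed members was 2.11, 1.81 and 0.42 in the order given here, against -0.01, -0.05 and 0.15 over all listed genes. Since the members were chosen on these contrasts, nothing is read from these counts. The median listed gene lay 0.15 higher (log2) in CRC-MPS CM than in ESC CM. When libraries were rescaled by the median ratio of their listed genes, the difference was 0.26 for AKR1C3, 0.19 for AKR1B10 and -0.32 for AKR7A2.

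The make-up of the family differed between the groups. AKR1A1 supplied 14.3% ± 0.274 of the summed TPM of the 7 members in CRC-MPS CM and 18.8% ± 0.298 in ESC CM, against 48.6% ± 3.44 in Con (SD, n = 3 each). The AKR1C genes together had 522 ± 52.6 TPM in CRC-MPS CM, 373 ± 13.1 TPM in ESC CM and 82.1 ± 15.4 TPM in Con. AKR1B10 was 2.08 ± 0.119 times as abundant as AKR1A1 in CRC-MPS CM and 1.60 ± 0.0598 times in ESC CM, against 0.399 ± 0.0515 times in Con (SD, n = 3 each). No library of either CM overlapped a Con library in these quantities.

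**Figure D4:**
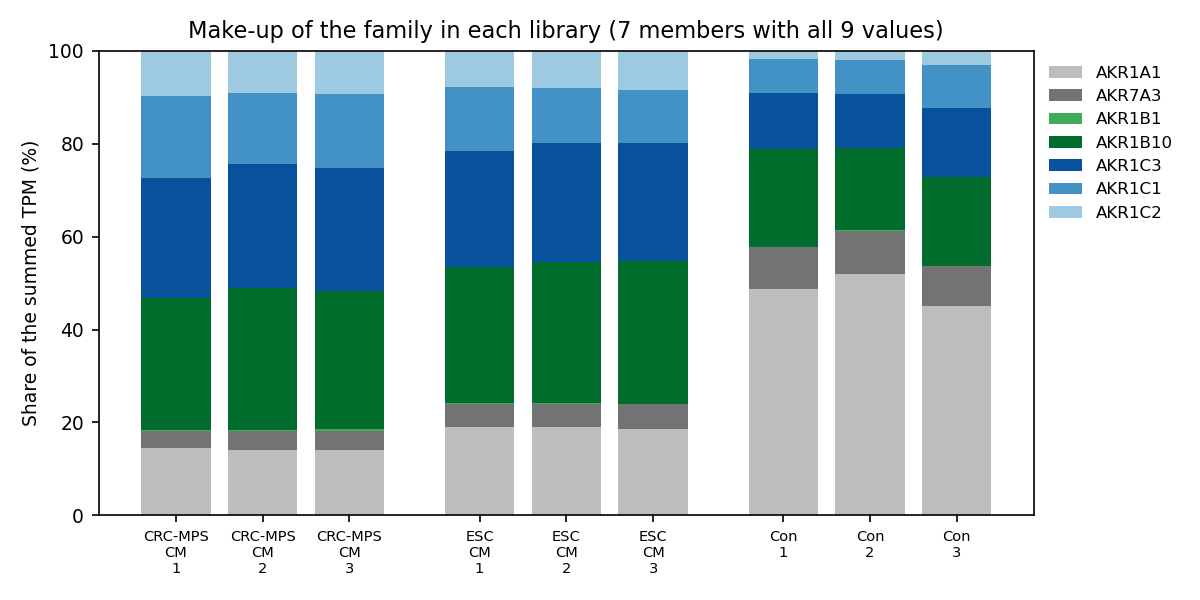
Share of the summed TPM (%) of the 7 members with values in all 9 libraries, a stacked bar per library, with CRC-MPS CM, ESC CM and Con from left to right. AKR1A1 is at most 19.0% in the CM libraries, where AKR1B10 and AKR1C3 have the largest shares, and is the largest share of each Con library.

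The order of levels followed from this. In CRC-MPS CM it ran AKR1B10 (297 TPM), AKR1C3 (264), AKR1C1 (165), AKR1A1 (143), AKR1C2 (93.6), AKR7A2 (84.4), AKR7A3 (39.0) and AKR1B1 (2.53), all as mean TPM. The libraries of 3 neighbouring pairs overlapped there, AKR1B10 with AKR1C3, AKR1C1 with AKR1A1, and AKR1C2 with AKR7A2. In ESC CM it ran AKR1B10, AKR1C3, AKR1A1, AKR1C1, AKR7A2, AKR1C2, AKR7A3 and AKR1B1, and only AKR1C1 and AKR7A2 overlapped. In Con it ran AKR1A1, AKR1B10, AKR1C3, AKR7A3, AKR1C1, AKR1C2 and AKR1B1, and only AKR7A3 and AKR1C1 overlapped.

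Within the AKR1C cluster the genes did not keep a fixed ratio. AKR1C2 made up 17.9% ± 0.256 of the AKR1C sum in CRC-MPS CM and 17.6% ± 0.810 in ESC CM, against 9.73% ± 1.21 in Con (SD, n = 3 each). AKR1C1 was 1.84, 1.71 and 1.72 times AKR1C2 in the CRC-MPS CM libraries and 1.75, 1.47 and 1.38 times in the ESC CM libraries, against 3.99, 3.63 and 3.12 times in the Con libraries. The ratio in every Con library was thus above that in every CM library, while the ranges of the 2 CM overlapped. Because the pair shares most of its coding sequence, this ratio rests on the reads that tell the genes apart. AKR1C3 and AKR1C2 share fewer words, but still 23.2% of those of their coding sequences. Their ratio, AKR1C3 to AKR1C2, was 2.83 ± 0.139 in CRC-MPS CM and 3.15 ± 0.0927 in ESC CM, against 5.81 ± 0.853 in Con.

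Within groups, as deviations of log2(TPM + 1) from the group mean over 9 libraries, the AKR1C genes varied together, with r = 0.84 for AKR1C2 and AKR1C3, 0.84 for AKR1C1 and AKR1C3 and 0.79 for AKR1C1 and AKR1C2. AKR1B10 followed AKR7A3 (r = 0.88). AKR1B10 also varied with AKR1C3 (r = 0.75) and with AKR1A1 (r = 0.72). AKR1B1 ran against AKR1C3 (r = -0.90), but AKR1B1 reached at most 2.86 TPM, so counting error may weigh on that r. These are descriptions of 9 libraries that share their scaling, and the members share reads as given above.

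The NRF2 response genes outside the family comprise 27 genes, most of them for glutathione and thioredoxin metabolism, NADPH supply, iron storage and conjugation, with the transporters ABCC2 and ABCC3, OSGIN1, the gene of NRF2 itself (NFE2L2) and that of its inhibitor KEAP1. For CRC-MPS CM against Con 23 were listed, of which 14 were called higher and 0 lower (20.5% and 20.3% of all listed genes). At an unadjusted p under 0.05 in limma, 21 were higher and 1 lower. The share of all listed genes at that threshold was not computed. The lists, like the members, were chosen with earlier results of these data known, so no p is given for their genes. GCLM, the regulatory subunit of glutamate-cysteine ligase, averaged 99.4 ± 7.02 TPM in CRC-MPS CM and 28.9 ± 1.14 TPM in Con (SD, n = 3 each), a log2 difference of 1.75 ± 0.0794 (SE). PIR, a nuclear iron-binding protein, differed by 1.48 ± 0.103, HMOX1, heme oxygenase, by 1.34 ± 0.134, and UGDH, which makes UDP-glucuronate, by 1.28 ± 0.0749 (SE). The AKR1C genes and AKR1B10 differed by 2.11 to 3.41 in the same comparison.

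For ESC CM against Con 23 of the list were listed, 10 were called higher and 0 lower (17.6% and 20.2% of all listed genes). There, 18 were higher and 2 lower at an unadjusted p under 0.05 in limma, again without a share for all listed genes. The highest were GCLM at 1.31 ± 0.0600, PIR at 1.25 ± 0.0909, PRDX1, a peroxiredoxin, at 0.90 ± 0.0761 and CBR1, a carbonyl reductase of another enzyme family, at 0.88 ± 0.0744 (log2 difference ± SE). Between the CM 15 were listed and 0 were called in either direction in limma. By the adjusted p without the minimum fold, 12 were higher and 0 lower (18.8% and 9.1% of all listed genes). In 13 of the 15 the CRC-MPS CM libraries all lay above the ESC CM libraries (36.8% of all listed genes). The median difference of the 15 was 0.35, against 0.15 for all listed genes. Without CRC-MPS CM replicate 1 or without ESC CM replicate 1, 1 gene of the list was called.

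**Figure D5:**
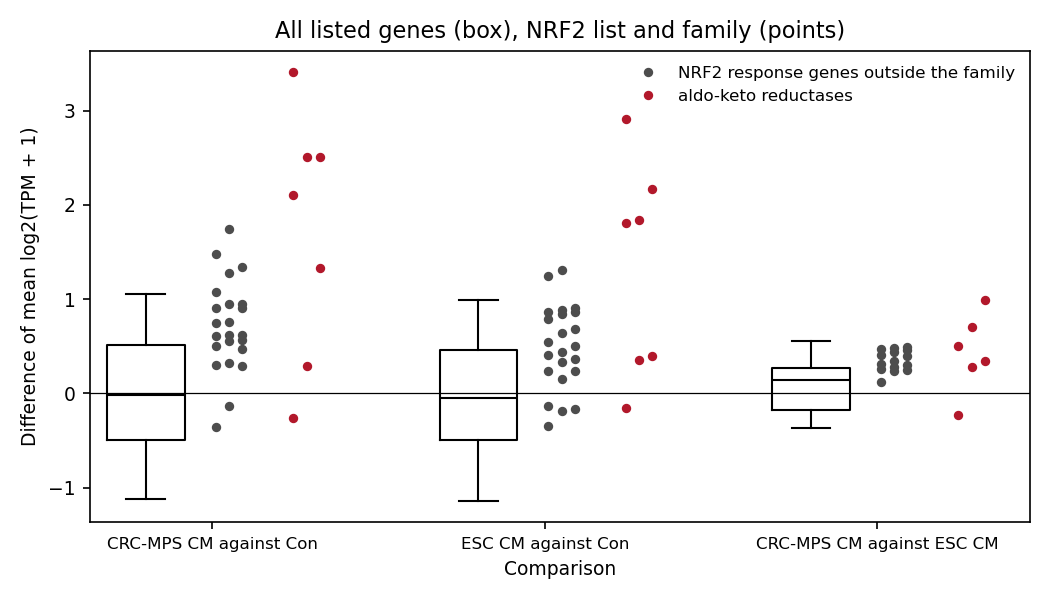
Difference of mean log2(TPM + 1) in the 3 comparisons, with a box for all listed genes (median, quartiles, whiskers at the 5th and 95th percentiles) and points for the NRF2 response genes outside the family and for the aldo-keto reductases. The AKR1C genes and AKR1B10 lie at 1.81 to 3.41 in the comparisons with Con, above GCLM, the highest gene of the NRF2 list, at 1.75 and 1.31.

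Other enzymes of aldehydes and ketones formed a list of 21 genes. For CRC-MPS CM against Con 15 were listed, with 5 called higher and 3 lower, beside 20.5% and 20.3% of all listed genes. ALDH3A1, an aldehyde dehydrogenase, averaged 13.7 ± 1.63 TPM in CRC-MPS CM and 2.07 ± 0.191 TPM in Con (SD, n = 3 each), a log2 difference of 2.26. ALDH1A3, which oxidizes retinal, was higher by 1.22 ± 0.104 and ALDH3A2, which oxidizes fatty aldehydes, by 0.97 ± 0.0955 (SE). ALDH5A1, which oxidizes succinic semialdehyde, was lower (-1.33 ± 0.0996, SE). For ESC CM against Con 17 were listed, with 6 called higher and 2 lower, beside 17.6% and 20.2% of all listed genes. With a minimum fold of 2 or a pseudocount of 5, 0 were called lower by limma there. Without the lowest 25% of genes 0 were called lower as well, but that follows from the filter. It leaves out the low genes ALDH5A1 and ABAT, which were the 2 called lower. ALDH3A1 was again the highest (2.31 ± 0.0706, SE), with ALDH1A3 at 1.21 ± 0.0804 and ALDH1A1 at 0.97 ± 0.0572. ALDH5A1 was lower there, at 2.09 ± 0.538 TPM in ESC CM and 5.14 ± 0.512 TPM in Con (SD, n = 3 each). Between the CM 7 were listed and 0 called in limma. By the adjusted p without the minimum fold, 0 were higher and 1 lower, beside 18.8% and 9.1% of all listed genes. In 1 the CRC-MPS CM libraries all lay above the ESC CM libraries and in 5 all below, beside 36.8% and 26.8% of all listed genes.

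Of 29 genes that act beside the AKR1C enzymes on steroids, prostaglandins and retinoids, 19 were listed for CRC-MPS CM against Con, with 5 called higher and 8 lower, beside 20.5% and 20.3% of all listed genes. HPGD, which inactivates prostaglandins, averaged 41.3 ± 1.26 TPM in CRC-MPS CM and 14.8 ± 2.27 TPM in Con (SD, n = 3 each), a log2 difference of 1.43 ± 0.109 (SE). RETSAT, retinol saturase, was lower (-1.26 ± 0.107), as were DHRS3, a retinal reductase (-1.06 ± 0.0984), and HSD17B7, an enzyme of cholesterol synthesis (-0.99 ± 0.0745, SE). For ESC CM against Con 20 were listed, with 4 called higher and 8 lower, beside 17.6% and 20.2% of all listed genes. Among those lower were DHRS9 (-1.26 ± 0.102), RETSAT (-1.19 ± 0.0901) and HSD17B7 (-0.95 ± 0.0660), and HPGD was higher (1.15 ± 0.114, SE). Between the CM 6 were listed and 0 called in limma. By the adjusted p without the minimum fold, 2 were higher and 2 lower, beside 18.8% and 9.1% of all listed genes.

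Of 9 further members of the superfamily, 0 were listed between the CM, 2 in the comparison of CRC-MPS CM with Con and 3 in that of ESC CM with Con. KCNAB2, a beta subunit of potassium channels with an aldo-keto reductase fold, averaged 8.48 ± 0.988 TPM in CRC-MPS CM and 3.97 ± 0.649 TPM in Con (SD, n = 3 each), a log2 difference of 0.94 ± 0.122 (SE). With ESC CM it averaged 7.15 ± 1.05 TPM, and the difference was 0.72 ± 0.127 (SE). AKR1E2 was also called for ESC CM against Con (0.66 ± 0.209, SE), although its libraries overlapped between the groups.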

How the data were processed

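HT29 RNA was measured in 9 libraries, 3 a group, as paired-end reads. The submitters' processing notes name STAR 2.6.1d, kallisto 0.46.0, DESeq2 and hg38; the annotation, the order of steps and the handling of shared reads were not found in the sources. The deposited values per library carry no unit name and were read, from their totals, as the authors' TPM per gene. The deposited mean over the 6 libraries of a table is a normalized signal and was printed as the authors' mean normalized count. The authors' own fold changes and p-values were not used. Tables list only genes with p under 0.05 in the authors' test, so shares called are high and unlisted genes are unknown.

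limma 3.58.1 (R 4.3.3) was run on log2(TPM + 1) of each table without a block or a filter, with Benjamini-Hochberg adjustment over its genes. A run on simulated data checked the code alone. Few genes changed there and no minimum fold was used, so it does not bear on the calls in these preselected tables. Members and lists were chosen with earlier results of these data known. Genes named from a list were the 4 called with the largest difference in a comparison and at least 1 TPM, and the likest genes were the 3 with the highest r and at least 10 TPM; for AKR1A1 the first alone is reported here. Depth is unknown and no counts were given, so no count test was run. Gene names stored as dates (4, 14 and 13 in the tables) matched no member. Protein sequences were not used here; coding sequences of GENCODE release 29 replaced them, and promoter windows came from RefSeq.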

Additional observations from a re-analysis of the deposited data

How the results depend on the processing

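No difference of a member changed sign under any alternative run. Between the CM, 2 members and 141 genes were called; the counts were 2 and 224 with a pseudocount of 0.1, 1 (AKR1C1) and 44 with 5, 1 (AKR1C1) and 50 without the lowest 25% of genes, 0 and 29 with a minimum fold of 2, 5 and 791 with none, and 1 (AKR1B1) and 38 when adjusted over 20000 genes. Leaving out a library gave 1 to 2 members and 81 to 217 genes, with 217 without CRC-MPS CM replicate 1, 81 without CRC-MPS CM replicate 3 and 89 without ESC CM replicate 3. Rescaling left 133 genes, 81 higher and 52 lower, against 111 and 30.

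For CRC-MPS CM against Con, 5 members and 4080 genes became 4 and 2395 with a pseudocount of 5 (1372 higher, 1023 lower), 5 and 1313 with a minimum fold of 2 and 7 and 8886 with none; without the lowest 25%, 4 members were called, AKR1B1 being left out, and genes split into 1702 higher and 1185 lower. Leaving out a library gave 5 members throughout. For ESC CM against Con, 4 members and 3788 genes became 4 and 2212 with a pseudocount of 5, 4 and 1187 with a minimum fold of 2 and 6 and 8952 with none, and 5 members with a pseudocount of 0.1, where AKR1B1 joined.

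The log2 difference of AKR1B1 ranged over the alternatives from 0.48 to 2.64 for CRC-MPS CM against Con, from 0.10 to 0.94 for ESC CM against Con and from 0.38 to 1.70 between the CM, the lowest with a pseudocount of 5 and the highest without a pseudocount.

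The list counts were recomputed under the same alternatives, chosen after seeing the data. NRF2 response genes called were 14, 10 and 0 (CRC-MPS CM against Con, ESC CM against Con, between the CM), and 5 and 2 against Con with a minimum fold of 2, all higher. With no minimum fold they were 22 (21 higher, 1 lower), 19 (18 higher, 1 lower) and 12 (all higher), out of 23, 23 and 15 listed. At that setting 8886 of 10019, 8952 of 10007 and 791 of 2835 listed genes were called, so nothing is read from the 2 counts against Con. Leaving out a library gave 12 to 15, 10 and 0 to 1. Other carbonyl and aldehyde enzymes were 8 (5 higher, 3 lower), 8 (6 higher, 2 lower) and 0. With a minimum fold of 2 they were 3 (2 higher, 1 lower) and 2 (all higher) against Con. With none they were 14 (9 higher, 5 lower), 17 (12 higher, 5 lower) and 1 (lower), beside the counts of all listed genes just given. With a pseudocount of 5 they were 5 (4 higher, 1 lower) and 5 (all higher) against Con. For ESC CM without the lowest 25% they were 5 (all higher), as that filter leaves out the genes called lower. Steroid, prostaglandin and retinoid partners were 13 (5 higher, 8 lower), 12 (4 higher, 8 lower) and 0. With a minimum fold of 2 they were 3 and 3 against Con (1 higher and 2 lower in each). With a pseudocount of 5 they were 8 (3 higher, 5 lower) for CRC-MPS CM against Con. Between the CM they were 4 (2 higher, 2 lower) with no minimum fold, 1 with a pseudocount of 0.1 and 0 to 1 with a library left out.

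Same-numbered libraries did not deviate together in every pair (r from -0.36 to 0.18), so the numbers were not taken as pairs. With replicate number as a block, 2, 5 and 4 members and 121, 4081 and 3788 genes were called (between the CM, CRC-MPS CM against Con, ESC CM against Con).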

Other observations

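For each member with values in all 9 libraries, the 3 genes outside the family with the most similar pattern were sought among 5930 genes of at least 10 TPM, by Pearson's r of log2(TPM + 1) over the 9 libraries. These genes were all listed in both comparisons with Con, which hold only genes with p under 0.05 in the authors' test. A difference between each CM and Con was thus a condition of being a candidate. The libraries fall into 3 groups and share their scaling, so these r are descriptions. AKR1C2 was most like SUCLA2, a subunit of succinyl-CoA ligase (r = 0.998), then HTATIP2 and ZBTB2. SUCLA2 averaged 99.0 ± 2.49 TPM in CRC-MPS CM, 87.0 ± 2.54 TPM in ESC CM and 44.6 ± 2.71 TPM in Con (SD, n = 3 each). AKR1C3 was most like HTATIP2 (r = 0.998), then TRIM16L and SUCLA2. AKR1C1 was most like FTL, the light chain of ferritin (r = 0.994), then SERINC5 and SDF2L1. FTL averaged 3059 ± 97.4 TPM in CRC-MPS CM, 2836 ± 60.3 TPM in ESC CM and 2199 ± 47.7 TPM in Con.

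AKR1B10 was most like TXN, thioredoxin (r = 0.996), then UHRF1BP1L and CWF19L2. AKR1B1 was most like SRXN1, sulfiredoxin (r = 0.966), then ST6GALNAC4 and FTH1, the heavy chain of ferritin. SRXN1 averaged 76.7 ± 4.40 TPM in CRC-MPS CM, 58.1 ± 2.85 TPM in ESC CM and 49.4 ± 2.49 TPM in Con. AKR1A1 was most like PYCARD (r = 0.952), and AKR7A3 most like FN3KRP (r = 0.985), then NUP133 and CCNE1.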
